A study of Mus musculus with 2 samples.

Results

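Open chromatin inside the protein-coding exons of the newborn mouse stomach is described here, as a set of 1025 accessible regions found in both replicates of a DNase-seq experiment. A region counted when peaks of both replicates overlapped by at least 1 bp, when the centre of the merged interval lay in coding sequence of a protein-coding transcript (GENCODE M21, build mm10), and when that centre was more than 1 kb from every annotated transcript start. These 1025 regions were 0.971% of all 105543 regions shared by the replicates (95% Wilson interval 0.914 to 1.03%). The choice used positions only and no signal value. The tissue was whole stomach of newborn (0 day) mice of the strain B6NCrl, with no treatment or altered gene named in the labels. There was 1 group of 2 biological replicates with a library each. The labels name the same donor for both and do not say whether separate animals or pools were used, so no groups could be compared and no test between conditions was possible. The number of reads per library is unknown here, and every interval given covers counting error only. The labelled tissue was checked by the promoters of marker genes: 14 of 14 stomach epithelial and 6 of 6 smooth muscle markers had a shared region within 1 kb of a start. The same was true of 6 of 6 brain, 2 of 6 liver, 2 of 6 erythroid and 0 of 6 immune markers, and of 66.4% of all protein-coding genes.

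In DNase-seq the enzyme DNase I cuts DNA that is not wrapped in nucleosomes or covered by protein, and short stretches with many cuts mark sites where regulatory proteins are bound. Most such sites lie at promoters and in noncoding DNA, where enhancers sit. Some lie inside coding exons, where the same bases specify amino acids and can also be read by transcription factors such as CTCF, a zinc finger protein that organises chromatin loops. An exonic site can belong to an enhancer of the gene or of a neighbour, to a CpG island (a stretch rich in G, C and CG dinucleotides) or to a start site that the annotation lacks, and cleavage data alone do not separate these. The newborn stomach holds a glandular epithelium, a squamous forestomach, smooth muscle, mesenchyme, enteric neurons and glia, vessels and blood.

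The sequences of several coding regions show what the accessible DNA looks like. Each is the 150 bp window centred on the region, read from the mm10 genome on the coding strand of the gene, 5′ to 3′. The windows of the 4 strongest regions in genes with an official symbol are shown for their base composition, with CG dinucleotides in capitals. They lie in Slc4a5 (chr6:83268286-83268435, + strand), Angptl6 (chr9:20878216-20878365, - strand), Fbxl22 (chr9:66511766-66511915, - strand) and Lpar5 (chr6:125081926-125082075, + strand).
Slc4a5: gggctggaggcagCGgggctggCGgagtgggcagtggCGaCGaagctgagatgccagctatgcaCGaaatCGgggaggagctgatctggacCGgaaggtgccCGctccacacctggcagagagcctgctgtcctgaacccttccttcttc
Angptl6: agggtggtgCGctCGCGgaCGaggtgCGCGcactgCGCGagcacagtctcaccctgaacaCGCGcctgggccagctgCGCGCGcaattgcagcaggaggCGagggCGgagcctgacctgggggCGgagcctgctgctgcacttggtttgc
Fbxl22: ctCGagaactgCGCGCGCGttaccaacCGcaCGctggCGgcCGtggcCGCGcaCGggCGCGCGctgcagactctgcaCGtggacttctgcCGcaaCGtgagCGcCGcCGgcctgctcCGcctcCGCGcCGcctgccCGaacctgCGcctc
Lpar5: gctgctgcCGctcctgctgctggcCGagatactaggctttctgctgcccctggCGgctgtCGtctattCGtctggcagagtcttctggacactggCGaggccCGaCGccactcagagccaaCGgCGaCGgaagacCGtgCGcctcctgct
The window of Fbxl22 held 27 CG dinucleotides, that of Angptl6 16, that of Lpar5 13 and that of Slc4a5 8.

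Strong coding regions that held a transcription factor consensus are shown next, with the match in capitals. CTCF matches lay in Synpo2l (chr14:20661066-20661215, - strand) and Rasip1 (chr7:45628846-45628995, + strand), an AP-1 match in Tnrc6b (chr15:80784666-80784815, + strand), an HNF4 match in Myh10 (chr11:68791916-68792065, + strand), a FOXA match in Glb1l3 (chr9:26831256-26831405, - strand) and a GATA match in Capn10 (chr1:92937916-92938065, + strand). A match in capitals that reads as the reverse complement lies on the strand opposite to the coding strand.
Synpo2l: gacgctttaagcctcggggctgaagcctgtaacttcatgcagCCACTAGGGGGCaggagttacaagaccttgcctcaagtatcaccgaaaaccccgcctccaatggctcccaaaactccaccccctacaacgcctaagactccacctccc
Rasip1: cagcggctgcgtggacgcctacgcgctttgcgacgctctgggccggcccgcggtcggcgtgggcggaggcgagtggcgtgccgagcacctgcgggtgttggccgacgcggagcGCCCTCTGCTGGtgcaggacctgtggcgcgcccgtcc
Tnrc6b: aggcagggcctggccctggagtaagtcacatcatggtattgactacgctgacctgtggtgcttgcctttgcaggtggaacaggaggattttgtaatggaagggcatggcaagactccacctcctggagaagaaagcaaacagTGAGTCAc
Myh10: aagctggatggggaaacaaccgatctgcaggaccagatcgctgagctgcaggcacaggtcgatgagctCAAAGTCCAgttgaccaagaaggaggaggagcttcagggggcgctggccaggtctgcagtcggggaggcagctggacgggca
Glb1l3: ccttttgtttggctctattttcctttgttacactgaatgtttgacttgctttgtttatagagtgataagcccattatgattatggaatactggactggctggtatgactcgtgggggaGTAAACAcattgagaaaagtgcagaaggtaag
Capn10: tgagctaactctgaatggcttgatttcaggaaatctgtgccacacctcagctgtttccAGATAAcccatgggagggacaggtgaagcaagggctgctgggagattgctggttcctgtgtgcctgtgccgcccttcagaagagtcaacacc
A window can reach past the exon, so a match need not lie in coding sequence, and that of Tnrc6b does not. A match is a description of the letters and does not show that the factor was bound.

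The last windows come from genes of gastric epithelial transcription factors and are shown because this list held the highest share of genes with a coding region among 10 lists. They lie in Elf3 (chr1:135256426-135256575, - strand) and Klf4 (chr4:55530326-55530475, - strand), again with CG dinucleotides in capitals.
Elf3: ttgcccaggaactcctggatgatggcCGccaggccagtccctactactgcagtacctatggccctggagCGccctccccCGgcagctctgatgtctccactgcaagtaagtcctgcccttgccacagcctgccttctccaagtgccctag
Klf4: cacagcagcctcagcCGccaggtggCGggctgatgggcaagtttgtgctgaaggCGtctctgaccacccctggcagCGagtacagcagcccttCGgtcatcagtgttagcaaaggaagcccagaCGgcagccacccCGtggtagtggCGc
These windows held 3 and 8 CG dinucleotides and had a GC content of 62.0 and 64.0%.

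Coding exons were about as densely accessible as introns and more densely than intergenic DNA. Coding sequence more than 1 kb from a start, 25 Mb in all, held 41.0 shared regions per Mb (95% exact Poisson interval 38.5 to 43.6). Introns held 37.1, noncoding exon sequence 47.6 and intergenic sequence 21.0 per Mb, all more than 1 kb from a start, and the whole genome held 38.7. Promoters, within 1 kb of a start, held 208 per Mb. In each replicate alone the coding exons had 59.1 and 61.8 peaks per Mb, the introns 50.2 and 55.1, and the intergenic sequence 28.9 and 30.8. The coding density was thus above the intron and intergenic densities in both libraries.

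**Figure D1:**
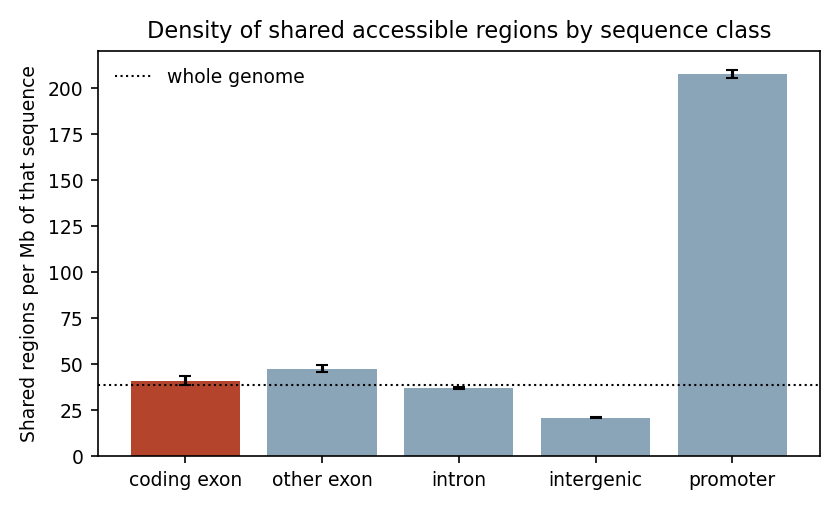
Shared accessible regions per Mb of each kind of sequence (bars, with 95% exact Poisson intervals for counting error) and over the whole genome (dotted line). Coding exons, at 41.0 per Mb, sit near the genome's 38.7, and promoters at 208 stand far above all others.

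At matched base composition the order of coding exons and introns was different. The 150 bp windows of the coding regions had a median GC content of 57.3% (quartiles 51.3 and 64.0%), against 50% for windows every 50 bp along all eligible coding sequence, 48.7% for intronic and 59.3% for promoter shared regions. Density rose with GC in every step of the coding sequence, from 1.68 regions per Mb below 35% GC, a value that rests on 2 regions, to 600 per Mb at 70% GC and above (495 to 722). Windows at or above 70% GC made up 0.753% of coding sequence and 11.0% of the coding regions. From 50 to 55% GC the coding density was 36.0 per Mb and the intron density 72.6, and from 60 to 65% GC they were 76.2 and 194. At 65 to 70% GC they were 237 (196 to 285) and 299. At and above 70% GC coding exons had 600 and introns 660 per Mb, values within the counting interval of the coding density. In all 9 GC steps the coding value was the lower of the pair, although the totals had the opposite order. GC content of a window can also alter how well it is amplified and sequenced, and that part was not tested.

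**Figure D2:**
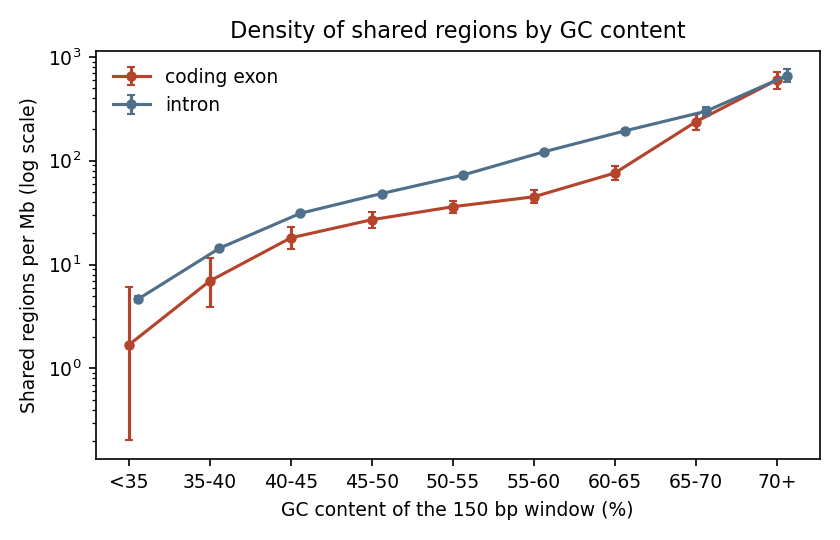
Shared regions per Mb (log scale) against the GC content of 150 bp windows, for coding exons and introns more than 1 kb from a start, with 95% exact Poisson intervals. Both curves climb with GC, and the coding curve runs below the intron curve until they meet at the highest step, at 600 and 660 per Mb.

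Many coding regions had a window rich in CG dinucleotides, which alone does not make a CpG island. Taking windows with at least 50% GC and a ratio of observed to expected CG dinucleotides of at least 0.6 as CpG-rich, 329 of the 1025 coding regions qualified (32.1%, Wilson interval 29.3 to 35%). Among coding windows without a peak in either replicate 7.79% qualified. The share was 2.93% among intronic, 6.84% among noncoding exonic, 5.03% among intergenic and 50% among promoter shared regions. The CpG-rich coding regions had a median peak signal of 50 in replicate 1 and 63 in replicate 2, and lay a median of 3041 bp from the nearest start. The other 696 coding regions had 45 and 56 and lay a median of 5350.5 bp away.

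The signal of coding regions was moderate and followed that of introns. Peak signal is a whole number with no stated unit and was read only within a list. Over the 1025 regions it ran from 10 to 115 in replicate 1 (median 47, quartiles 36 and 61) and from 11 to 119 in replicate 2 (median 58, quartiles 46 and 73). Intronic regions had the same medians of 47 and 58, intergenic regions had 46 and 58, and promoter regions 62 and 74. Taken as a percentile within each replicate's list and averaged, the median was 55.8 for coding regions and 61.9 for all shared regions. Only 33 coding regions (3.22%) were among the strongest 10% of shared regions, and 122 (11.9%) were among the weakest 10%. A low share in the strongest 10% was common to intronic (3.76%), intergenic (4.04%) and noncoding exonic regions (4.50%), against 23.2% of promoter regions. Signals in the replicates had a Spearman coefficient of 0.880 across the coding regions and 0.910 across all shared regions, a description across regions that share their libraries.

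**Figure D3:**
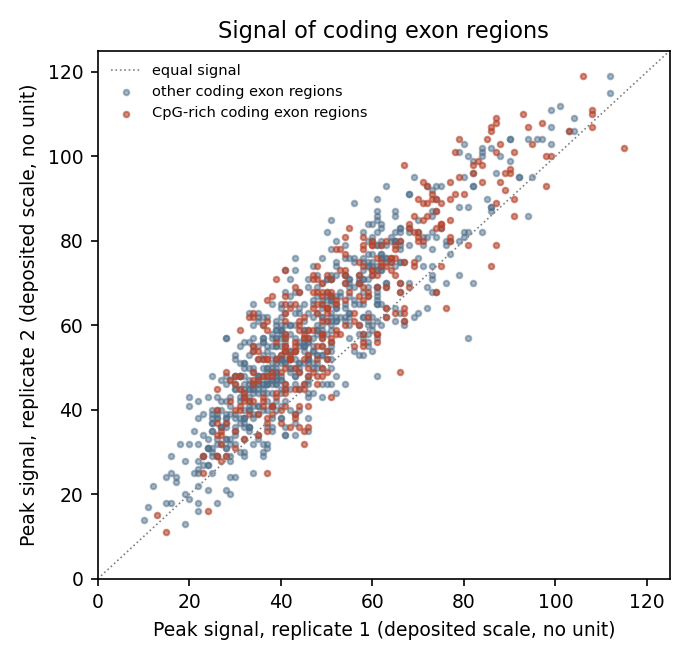
Peak signal in replicate 1 against replicate 2 for the 1025 coding regions (points), on the deposited scale without unit, with CpG-rich regions in red and a dotted line of equal signal. Points run from 10 to 115 on the horizontal and 11 to 119 on the vertical axis, and CpG-rich regions are spread over the whole range.

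Replication of coding peaks was similar in both directions. Of the 1478 peaks of replicate 1 that met the position rule on their own, 69.8% overlapped a peak of replicate 2, against 77.6% of all its peaks. Of 1546 such peaks in replicate 2 the share was 68.1%, against 70.7%. Coding peaks without a partner had a median signal of 25 in replicate 1 and 38 in replicate 2, close to the 27 and 38 of all peaks without a partner. All 1025 shared coding regions lay in a hotspot, a wider stretch of raised cleavage, in both replicates. Peaks and hotspots of a replicate come from the same library, so this overlap is no independent support for the regions. The hotspot's −log10 q stood at the ceiling of 100 for 435 regions in replicate 1 (42.4%) and for 515 in replicate 2 (50.2%). Of all single hotspots in each list 38.9 and 39.4% stood there. These shares are not alike, since a region needed a peak in both replicates and took the highest value of any hotspot it overlapped. The difference is therefore not read as a trait of coding regions. For 4 of the 1025 regions in replicate 1 and 9 in replicate 2, an overlapping hotspot also held an annotated transcript start. The position rule leaves room for few such cases, since the median hotspot widths were 250 and 274 bp.

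The strongest coding region with an official gene symbol lay in coding exon 11 of 25 of Slc4a5, a sodium bicarbonate cotransporter (mm10 chromosome 6, 83268276 to 83268445). Its peak signal was 112 in replicate 1 and 115 in replicate 2. Angptl6, a secreted angiopoietin-like protein, had 106 and 119 in its first coding exon, 1436 bp from the nearest start (chromosome 9, 20878176 to 20878405). Fbxl22, an F-box protein of striated muscle, had 108 and 111 in its last coding exon (chromosome 9, 66511756 to 66511925). Lpar5, a receptor for lysophosphatidic acid, had 108 and 110 in its single coding exon (chromosome 6, 125081916 to 125082085). The same 10 strongest regions included Sft2d3 on chromosome 18 (108 and 107), Gfap, the intermediate filament of glia (101 and 112), the Rab GTPase activator Tbc1d1 (104 and 109), the zinc finger gene Zfp771 (115 and 102), the calpain Capn10 (99 and 111) and 1 gene without an official symbol (112 and 119). The 10 were picked by the mean of both replicates' percentiles, so high signals in both libraries follow from the choice. They were not at the top of the whole list: the strongest coding region ranked 1916 among all 105543 shared regions.

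The position of a region within its gene went with both exon type and GC. For the 1003 regions placed on the transcript with the longest coding sequence, internal coding exons held 606 regions or 33.9 per Mb (31.3 to 36.7). Last coding exons held 248, or 54.2 per Mb (47.7 to 61.4), first coding exons 68, or 69.4 (53.9 to 88.0), and the exons of genes with a single coding exon 81, or 64.1 (50.9 to 79.7). Regions in these exons were richer in GC too, with a median of 63.0% in first, 62.7% in last and 66.7% in single exons and 54.3% in internal exons. Between 50 and 60% GC the densities were 41.5 per Mb in first, 40.4 in internal, 38.7 in last and 23.4 in single coding exons. Between 65 and 70% GC they were 381, 123, 327 and 380. Internal exons were thus the lowest of the 4 kinds in these GC-rich windows and not at 50 to 60% GC. By exon length the density ran from 31.5 per Mb in coding exons over 3000 bp to 58.0 in those of over 500 and up to 1000 bp (48.9 to 68.4). Between 50 and 60% GC the order was different, with 46.3 per Mb in exons of up to 200 bp (40.8 to 52.5) and 28.0 in those of over 500 and up to 1000 bp (18.3 to 41.0). From 60 to 65% GC the same pair had 68.4 (52.3 to 87.8) and 106 (73.5 to 148). It had 228 and 247 from 65 to 70% GC, and 707 and 691 at or above 70% GC.

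Most regions reached beyond coding sequence. The median region was 170 bp wide and the median coding exon interval 205 bp long, and in 391 regions (38.1%) the exon was shorter than the region. Only 374 regions (36.5%) lay wholly in coding sequence. The median share of coding bases was 80.6%. The centre was within 50 bp of an exon edge in 489 regions (47.7%). Counted on the longest transcripts it was 47.3% of regions, against 52.2% of all eligible coding bases, so centres were not closer to edges than coding bases are. Peak starts lie on a 20 bp grid, which limits how finely a centre can be placed. The centre was coding in every coding transcript that spans it for 928 regions (90.5%). The splice donor letters GTAAGT were found on the coding strand in 55 coding regions (5.37%) and in 5.71% of coding windows without a peak.

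The regions thinned out with distance from transcript starts. They lay a median of 4476 bp from the nearest start, and at most 163556 bp. Their density was 66.0 per Mb over 1 and up to 2 kb away, 41.5 up to 5 kb, 35.8 up to 20 kb and 28.8 beyond. Between 50 and 60% GC these densities were 46.4, 38.1, 37.9 and 37.2 per Mb, a narrower range. From 60 to 65% GC they were 102, 71.3, 67.7 and 54.0, which still fell with distance. From 65 to 70% GC they were 394 (293 to 520), 207, 139 (87.1 to 210) and 217. At or above 70% GC they were 620, 503, 696 and 613 with no steady fall. At the 1 kb limit itself the values on either side were close. In the last 250 bp before the limit, left out by the rule, there were 141 coding-centred regions (90.2 per Mb) with median signals of 48 and 60. In the first 250 bp beyond it there were 94 (80.9 per Mb) with 45 and 58. The nearest on the excluded side lay in B3gat2 at 1000 bp (68 and 80), Znhit2 at 999 bp (65 and 73) and Slc28a2 at 998 bp (38 and 37). The nearest in the set lay in Ddit4 at 1003 bp (87 and 79), Ints2 at 1005 bp (38 and 38) and Sfpq at 1006 bp (51 and 71). Of all 2640 shared regions centred in coding sequence, 1615 (61.2%) were within 1 kb of a start.

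The CTCF consensus was about as frequent in coding regions as in introns. It was found in 70 of 1025 windows of 150 bp (6.83%, Wilson interval 5.44 to 8.54%), beside 5.24% of all shared regions, 5.78% of intronic and 1.88% of promoter regions. Coding windows without a peak held it in 0.0627%. In 55 of the 70 the matched bases were coding throughout. The matches lay a median of 16 bp from the region's centre, and the regions with one had a median signal percentile of 64.4. The strongest were in Synpo2l, an actin-binding protein of muscle (90 in replicate 1 and 104 in replicate 2), and in Rasip1, a Ras-interacting protein of endothelium (86 and 107). The consensus lay on the strand opposite to the coding strand in 44 of 70 regions (62.9%, 51.1 to 73.2%). In coding windows without a peak along the longest transcripts, 201 of 313 matches (64.2%) lay on that strand, a share within the interval of the coding regions. These windows are 50 bp apart and overlap, so that a site can count in several of them. The CTCF string read backwards was found in 0 of the 1025 coding regions and in 0.0131% of coding windows without a peak.

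Consensus sequences of AP-1, GATA and FOXA factors were rarer in coding than in intronic regions. All motifs were searched on both strands. AP-1 (TGACTCA), bound by Fos and Jun proteins, was in 68 coding regions (6.63%, 5.27 to 8.33%), beside 9.9% of all shared and 12.8% of intronic regions, and in 1.91% of coding windows without a peak. The consensus of zinc finger factors of the GATA family (AGATAA) was in 53 (5.17%, 3.97 to 6.70%), beside 8.82% of all shared and 11.2% of intronic regions, and in 6.03% of coding windows without a peak. FOXA (TGTTTAC), bound by forkhead factors of the foregut, was in 24 (2.34%, 1.58 to 3.46%), beside 4.29% of all shared and 5.49% of intronic regions, and in 1.51% of coding windows without a peak. HNF4 (CAAAGTCCA), bound by a nuclear receptor of the gut epithelium, was in 8 (0.780%, 0.396 to 1.53%), an interval that holds the intronic share, beside 0.965% of all shared and 1.22% of intronic regions, and in 0.294% of coding windows without a peak. The AP-1 string read backwards was found in 19 coding regions (1.85%) and in 1.85% of coding windows without a peak. The reversed FOXA string was in 17 (1.66%) and in 2.73% of those windows, and the reversed GATA string in 23 (2.24%) and in 4.50%. The AP-1 share of coding regions was above that of coding windows without a peak, while its reversed string was about equal in both. The GATA interval held the share of those windows, but the reversed GATA string was less frequent in coding regions than in them. How base composition bears on these shares was not tested.

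The strongest regions with each of these motifs ranged from near the top to the middle of the set in signal. A match was wholly coding in 44 of the 68 regions with AP-1 and in 11 of the 24 with FOXA. For GATA this held in 38 of 53 regions and for HNF4 in 7 of 8. The other matches lay at least partly outside coding sequence. The strongest regions with an AP-1 match, coding or not, were in Rai14, a cortical actin protein (104 and 106), and in Tnrc6b, a scaffold of microRNA silencing (88 and 100). For FOXA the strongest were in Glb1l3, related to beta-galactosidase (103 and 106), and in Krt79, a keratin (87 and 108). For GATA the strongest were in Capn10 (99 and 111) and in the Golgi subunit Cog2 (82 and 96). For HNF4 the strongest were in Myh10, a nonmuscle myosin heavy chain (71 and 79), and in the adhesion molecule Ceacam20 (51 and 71). ETS (CCGGAAGT) was found in 8 regions (0.780%, beside 1.22% of all shared regions), the strongest in the proteasome subunit Psmc2 (103 and 106) and in Pomc, the precursor of pituitary peptide hormones (74 and 68). The HNF1 consensus was found in 2 regions (0.195%, beside 0.618% of all shared regions), in Pde4dip (84 and 101) and Sipa1l1 (48 and 59). The NFI consensus was found in 0 of 1025 regions and in 0.0824% of all shared regions.

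The E-box CAGCTG was the most frequent of the 18 motifs searched. It was found in 187 coding regions (18.2%, 16 to 20.7%), beside 10.6% of all shared, 11.2% of intronic and 9.55% of promoter regions. Coding windows without a peak held it in 11.8%, and in 161 of the 187 regions a match was wholly coding. On the coding strand 95 matches were counted at codon position 1, 37 at position 2 and 40 at position 3. How codon use and base composition bear on the share was not tested. The E-box CACGTG was in 53 regions (5.17%), beside 4.01% of all shared regions and 2.36% of coding windows without a peak. The GC box GGGCGGGG, read by Sp and Klf factors, was in 34 (3.32%, 2.38 to 4.6%), beside 6.45% of all shared, 15.2% of promoter and 2.28% of intronic regions, and in 0.518% of coding windows without a peak. Matches of different motifs can overlap, and a region can count for several. CpG-rich coding regions held the CTCF consensus in 16 of 329 (4.86%) and AP-1 in 10 (3.04%), and the other coding regions in 54 (7.76%) and 58 (8.33%).

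**Figure D4:**
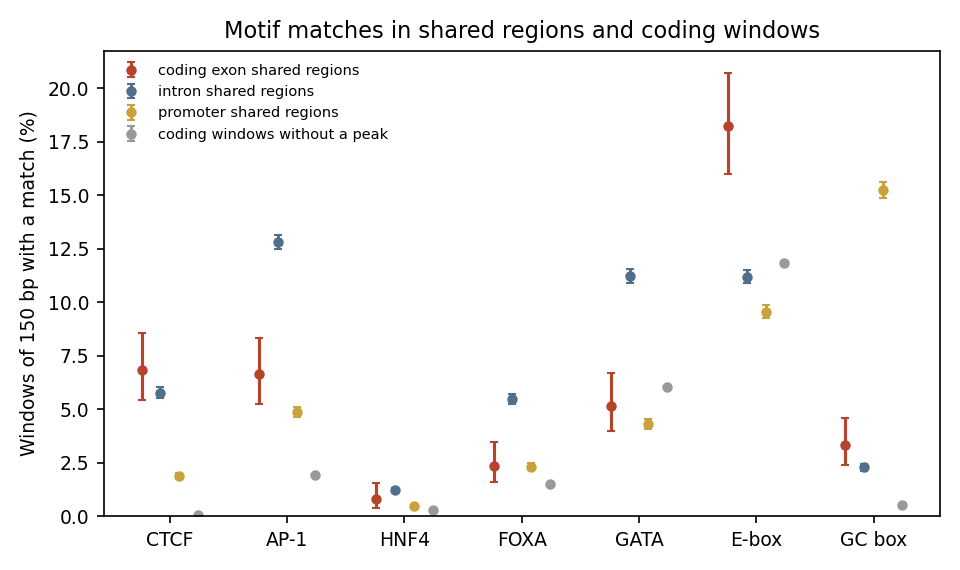
Share of 150 bp windows with a match to each of 7 motifs, in coding, intronic and promoter shared regions and in coding windows without a peak (points, with 95% Wilson intervals). Coding regions are near introns for CTCF (6.83 and 5.78%), below them for AP-1 (6.63 and 12.8%) and GATA (5.17 and 11.2%), and above them for the E-box CAGCTG (18.2 and 11.2%).

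At the level of genes, 936 of 19135 protein-coding genes with eligible coding sequence held at least 1 coding region, or 4.89%. Of these, 858 genes had 1 region, 68 had 2 and 10 had 3 or more. The share rose with coding length, from 2.43% of genes with up to 1000 bp of coding sequence to 16.1% of those with over 5000 bp. A shared region lay at the promoter of 80.8% of the genes with a coding region and of 71.1% of the others. The genes with one also had longer coding sequence, with a median of 1936.5 against 1296 bp. Another shared region lay within 1 kb of 286 coding regions (27.9%, 25.2 to 30.7%), against 23.7% of intronic and 37.4% of all shared regions.

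The genes with the most coding regions included structural proteins of squamous epithelium. Tchh, trichohyalin, a protein of hardened epithelium and hair sheath, had 5 regions in its coding sequence on chromosome 3. Their signals were 37, 61, 37, 60 and 53 in replicate 1 and 52, 72, 61, 79 and 78 in replicate 2. Lor, loricrin, the main protein of the cornified envelope, had 4 on the same chromosome, with 66, 60, 36 and 46 in replicate 1 and 68, 72, 48 and 50 in replicate 2. The windows of Lor had a GC content of 70 to 76%. Neither gene had a shared region at its promoter, and neither did Prr36, which had 3 coding regions (65, 60 and 56 in replicate 1, and 80, 59 and 89 in replicate 2). Signals of the regions in Tchh, Lor and Prr36 ran from 36 to 66 in replicate 1 and from 48 to 89 in replicate 2, so some lay near the lower quartile of all coding regions and some above the upper one.

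The other genes with 3 coding regions all had an open promoter. Zfp503, a zinc finger repressor on chromosome 14, had 36, 93 and 37 in replicate 1 and 41, 110 and 46 in replicate 2, so that the middle region stood well above its neighbours in both. Tbc1d1 had 38, 62 and 104 in replicate 1 and 65, 73 and 109 in replicate 2. Fzd8, a Wnt receptor with a single coding exon on chromosome 18, had 52, 49 and 51 in replicate 1 and 66, 67 and 67 in replicate 2, a nearly even series. Irf2bpl, a nuclear ubiquitin ligase, had 46, 66 and 49 and then 52, 70 and 50. Fjx1, Syne1, a nuclear envelope linker, and Scn8a, a neuronal sodium channel, had 3 each, with signals between 33 and 63.

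Coding regions were frequent in genes of gastric epithelial transcription factors. Of 25 such genes with eligible coding sequence 7 held a region, or 28.0%, against 4.89% of all genes, and their median coding length was 1395 bp against 1326 bp overall. Elf3, an epithelial ETS factor, had 87 in replicate 1 and 96 in replicate 2. Klf4, which drives surface mucous and squamous differentiation, had 80 and 95. Klf5 had 79 and 72, Creb3l1 had 57 and 71, Esrrb had 32 and 43, and the pioneer factor Foxa1 held a pair of regions in its last coding exon, with 49 and 37 in replicate 1 and 59 and 37 in replicate 2. Esrrb was the only 1 of the 7 without an open promoter. The regions of Elf3 and Klf4 lay 1148 and 1369 bp from the nearest start, and those of Creb3l1 and Esrrb 10417 and 14532 bp. How GC content and distance from a start bear on the share of this list was not tested. The list's members Gata4, Gata6, Foxa2 and Hnf4a had open promoters and no coding region by the rule, and Sox2 had no coding sequence more than 1 kb from a start. Of 25 products of the gastric glands 1 held a coding region (4%, near the 4.89% of all genes), Gkn3, with 52 and 64, and Muc5ac, Muc6 and Atp4a held none.

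Signalling genes came next. Of 55 genes of the Hedgehog, BMP, FGF, Wnt and Notch pathways 7 held a coding region (12.7%, against 4.89% of all genes), 11 regions in all. The list's median coding length was 2397 bp. Of all genes with over 2000 and up to 3000 bp of coding sequence 6.20% held a region. Per Mb of eligible coding sequence the list held 95.4 regions and all genes 40.9. The receptor Notch3 held a pair, with 62 and 50 in replicate 1 and 83 and 82 in replicate 2. The Wnt receptor Fzd7 had 57 and 70 in its single coding exon, and Fzd8 had its series of 3. The others of this list were Maml3 (49 and 61), Bmpr1a (32 and 40), Dll1 (18 and 32) and Jag1. Jag1 held a pair, with 35 and 30 in replicate 1 and 54 and 46 in replicate 2.

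Muscle and matrix genes had counts that have to be read against their length. Of 29 smooth muscle and actin genes 3 held a region (10.3%): Myh10 (71 and 79), Synpo2 (59 and 55) and Sorbs2 (39 and 57). Myh11, the smooth muscle myosin, held none. Of 36 matrix genes 4 did (11.1%), with a median coding length of 5359.5 bp: Fbn2 (43 and 52), Fn1, fibronectin (42 and 45), Tnxb (37 and 48) and Col6a3, all with weak to moderate signals. Of 33 adhesion and cytolinker genes Lama3 alone held any (3.03%), a pair on chromosome 18 (49 and 36 in replicate 1, and 43 and 56 in replicate 2). Chromatin coregulators had the longest coding sequence of the lists, with a median of 6030 bp, and 3 of 50 held a region (6%): Kmt2a (62 and 65), Nsd1 (30 and 52) and Kmt2c (23 and 34). That is below the 16.1% of all genes with over 5000 bp of coding sequence. Per Mb of eligible coding sequence the coregulators held 12 regions, the matrix genes 27.8, the gastric transcription factors 306 and all genes 40.9. The smooth muscle and actin genes, with a median coding length of 2838 bp, held 39.8 per Mb, near the value of all genes.

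Developmental factors and genes of other tissues completed the lists. Of 42 Hox and TALE homeobox genes Tgif1 alone held a region (2.38%; 44 and 51). Of 37 zinc finger homeobox, Spalt, Tshz, Prdm and Zeb genes 4 did (10.8%): Zfp462 (41 and 42), Zfp536 (37 and 46), Prdm15 and Zeb2. Of all genes 4.89% did, and of those with over 3000 and up to 5000 bp of coding sequence 9.38%. The median coding length of this list was 3453 bp, and it held 30.1 regions per Mb, below the 40.9 of all genes. Among 44 genes of erythroid, immune, neural and liver cells 4 did (9.09%). These were Gfap (101 and 112), Spi1, a regulator of myeloid cells (87 and 109), the erythroid factor Klf1 (71 and 54 in replicate 1, and 89 and 72 in replicate 2) and the erythropoietin receptor Epor. Spi1 and Klf1 had no shared region at their promoters, while Gfap and Epor did. In tissue, an open site in a fraction of the cells and a weaker opening in all of them cannot be told apart. The lists were chosen with earlier results of these data known, and a share of a list describes these libraries only.

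**Figure D5:**
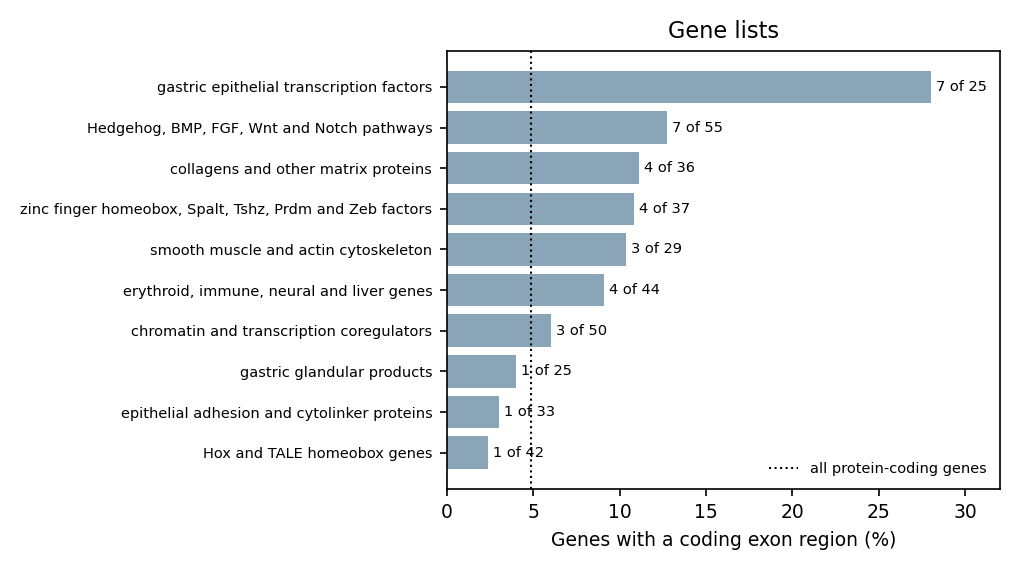
Share of the genes in each of 10 lists that hold at least 1 coding region (bars, with the counts beside them) and the share of all protein-coding genes (dotted line, 4.89%). Gastric epithelial transcription factors reach 28.0%, while glandular products, adhesion genes and Hox and TALE genes lie below the line.

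Gene families defined by their symbols differed widely in these counts. Of 51 keratin genes 9 held a coding region (17.6%, against 4.89% of all genes), 8 of them in the type II keratin cluster on chromosome 15. Krt79 had 87 and 108, Krt78 had 73 and 68, Krt77 had 69 and 74 and Krt88 had 58 and 73. Krt7, a keratin of simple epithelia, had 34 and 46, and Krt20, a gut keratin on chromosome 11, had 31 and 38. Keratin genes are similar in sequence, and how reads that match several of them were treated is not given in the sources used here. Of 415 genes named Zfp, Zkscan or Zscan 12 held one (2.89%), and of 273 olfactory receptor genes 1 did (0.366%). Solute carriers were near the share of all genes, with 16 of 367 (4.36%). Per Mb of eligible coding sequence the keratin genes held 205 regions and the solute carriers 35.7. The zinc finger genes held 20.3, the olfactory receptor genes 9.29 and all genes 40.9.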

How the data were processed

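Peaks and hotspots on build mm10 were used, called in each replicate separately per the deposited file lists. The deposited peak signal is a score without unit or stated scaling. The deposited value of a hotspot is a −log10 q. Aligner, caller, thresholds and read numbers were each not given in the sources used here, so the depth is unknown. From 139654 and 153178 peaks, 139374 and 152779 on the 19 autosomes, X and Y were used. Regions were built, classed against GENCODE M21 in the order promoter, coding exon, other exon, intron, intergenic, and searched for 18 motifs with Python 3.11.15, pandas 2.3.3, scipy 1.17.1 and pysam 0.24.0, with scripts tested on simulated data.

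The members and lists were chosen with earlier results of these data known. Named by rule were the 10 strongest regions, the genes with the most regions (8 were asked for, and ties gave 10), up to 2 regions for each of 9 motifs, up to 3 genes of each list and 3 regions on either side of the 1 kb limit. Other names, the windows of Elf3 and Klf4 and the symbol families were chosen after their values were seen. A gene counted in its list is not reported here by name. For AP-1 the second strongest region is printed. Alternatives were single replicates, the stronger 50% of each peak list, an overlap of 50%, a distance of 2.5 kb and regions wholly in coding sequence.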

Additional observations from a re-analysis of the deposited data

How the results depend on the processing

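No paired analysis was possible because there is 1 group and no contrast. Without either replicate, so with single lists, the set held 1478 to 1546 regions (1025 in the main set), 59.1 to 61.8 per Mb (41.0), in 1295 to 1344 genes (936). The median signal percentile was then 41.4 to 46.0 (55.8), the median GC 56.7 to 57.3% (57.3), the share near an exon edge 46.6 to 47.7% (47.7), and the CTCF and AP-1 shares were 5.07 to 5.37% (6.83) and 5.69 to 5.82% (6.63). Taking the stronger 50% of each peak list left, by construction, 519 regions, 20.8 per Mb, 485 genes and a percentile of 73.9, with a CTCF share of 8.86%. More than 2.5 kb from a start there were 694 regions, 35.6 per Mb. Regions wholly in coding sequence numbered 374, 15 per Mb in 337 genes, with a median GC of 64.0% and an AP-1 share of 3.21%, and 0.267% had a centre near an edge, since a region inside an exon cannot be centred there. The cause of the higher GC and lower AP-1 share was not tested. For the stronger 50% of each list the edge share was 46.4%, the GC 58.7% and the AP-1 share 7.32%. Beyond 2.5 kb these were 52.4, 56 and 7.35%, and CTCF was at 6.48%. With an overlap of 50% CTCF was at 7.13% and AP-1 at 6.82%, and for regions wholly coding CTCF was at 5.88%. Which weak sites reached both lists depends on a depth that is unknown.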
